A study of Mus musculus with 12 samples.

Results

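Fatty acid elongases and desaturases build the long and unsaturated acyl chains of liver lipids, and 9 of their transcripts were followed here in the livers of wild-type (WT) mice and of mice lacking Bmal1 in the liver (KO). The genes were Elovl1, Elovl2, Elovl3, Elovl5, Elovl6, Fads1, Fads2, Scd1 and Scd2, 9 of 22322 gene symbols in the data, each read from the transcript row with the highest mean. Elovl3 was chosen by its own measured values in these samples, a time difference that ran in opposite directions in WT and KO, so its levels are given as a description with no test, and the other 8 genes were joined to it as members of the same enzyme families. RNA sequencing measured 4 groups with 3 samples each, WT and KO at circadian time 0 h (CT0) and 12 h (CT12), all from C57BL/6 mice of 8 weeks that had spent the last 2 days in darkness with food and water at hand. The published methods describe all mice of the study as male. The WT mice carried the floxed Bmal1 alleles (flox/flox) without deletion, and the KO mice carried the same alleles together with a CRE recombinase active in the liver. For WT the study states none, so the recombinase and the loss of Bmal1 cannot be told apart. The titles give 3 replicates per group and the published methods 3 mice, while the labels' treatment text speaks of 2 of each genotype at each time. That text also writes Bmal1 -/- for the KO mice and names the times as zeitgeber time (ZT), where the titles and the published methods use CT. The p-values measure the spread between these samples. Whole livers were used, so fewer cells of a type and less RNA per cell cannot be told apart.

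ELOVL proteins catalyse the condensation step that lengthens an acyl-CoA by a pair of carbons from malonyl-CoA, and they differ in the chains they accept. ELOVL1, ELOVL3 and ELOVL6 act mainly on saturated and monounsaturated chains, with ELOVL6 taking palmitate to stearate, whereas ELOVL2 and ELOVL5 act on polyunsaturated chains. SCD1 and SCD2 place the first double bond into stearoyl- and palmitoyl-CoA, and FADS1 and FADS2 are the delta-5 and delta-6 desaturases of the polyunsaturated pathway. In liver many of these genes are targets of SREBP-1c and LXR, and Elovl3 is known for a strong daily rhythm and for higher levels in males.

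On NCBIM37, the build named in the submitters' notes as mm9, 5 of the 9 genes lie on chromosome 19. Elovl3 occupies 46206387 to 46210184 on the plus strand. Fads2 (10138654 to 10175993, minus strand) and Fads1 (10257378 to 10271360, plus strand) stand back to back with 81.4 kb between them, and Scd2 (44368166 to 44381354, plus strand) and Scd1 (44468941 to 44482199, minus strand) stand end to end with 87.6 kb between them. Elovl1 lies on chromosome 4, Elovl2 on chromosome 13, Elovl5 on chromosome 9 and Elovl6 on chromosome 3. The values cover whole transcripts, exons and untranslated parts together. Reads that 2 of these genes could share were looked for as identical stretches of 50 bases between their transcripts. Of the 36 pairs only Scd1 and Scd2 had any, 145 windows or 2.68% of those in the Scd2 transcript, with a longest identical run of 147 bases.

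RefSeq promoter windows (GRCm38.p6) were at hand for Elovl1, Elovl2, Elovl5, Elovl6 and Fads2. The 250 bases before the start are shown for the 3 of these whose KO and WT values differed most at CT12, and they were matched by gene symbol, so the Elovl5 window stands before the gene's 5′ end and not before the shorter transcript row whose values are given. Capitals mark matches, on either strand, to the E-box CACGTG bound by CLOCK and BMAL1, its variant CACGTT, the AGGTCA core used by REV-ERB and PPAR proteins, and the D-box core TTANGTAA.
Elovl5, chr9:77917115-77917364, plus strand: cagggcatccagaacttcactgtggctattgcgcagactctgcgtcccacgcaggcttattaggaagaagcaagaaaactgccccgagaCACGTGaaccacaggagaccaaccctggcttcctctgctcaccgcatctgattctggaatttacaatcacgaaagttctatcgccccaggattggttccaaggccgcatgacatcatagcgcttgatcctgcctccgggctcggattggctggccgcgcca
Elovl6, chr3:129532136-129532385, plus strand: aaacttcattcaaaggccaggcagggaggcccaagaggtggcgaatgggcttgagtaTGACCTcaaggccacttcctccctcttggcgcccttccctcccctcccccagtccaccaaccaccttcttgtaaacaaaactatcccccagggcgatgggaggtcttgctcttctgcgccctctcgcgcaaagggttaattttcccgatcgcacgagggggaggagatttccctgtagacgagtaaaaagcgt
Fads2, chr19:10101504-10101753, minus strand: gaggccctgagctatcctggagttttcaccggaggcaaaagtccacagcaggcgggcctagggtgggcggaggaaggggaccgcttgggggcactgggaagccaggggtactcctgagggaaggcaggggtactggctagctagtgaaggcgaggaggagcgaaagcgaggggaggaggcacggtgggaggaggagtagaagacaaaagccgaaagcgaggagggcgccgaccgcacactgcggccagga
The Elovl5 window held 1 CACGTG, which starts 161 bases before the transcript start, and 6% of the 32851 windows of the same length in the table held one. The Elovl6 window held 1 AGGTCA on the other strand, 193 bases before the start, a match found in 14% of all windows. The Fads2 window held none of the 4 motifs, and CACGTT and TTANGTAA, present in 3.8% and 2.1% of all windows, were in none of the 3. A match is a match of letters and not a measured site.

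Depth recovered from the low values was 11460000 to 19020000 reads per sample, and the members drew between 61 reads (Scd2, lowest sample) and 293039 reads (Scd1, highest sample). Arntl, which encodes BMAL1, read 16.4, 15.7 and 15.7 RPKM (reads scaled to transcript length in kilobases and to library size) in WT at CT0 against 5.92, 5.73 and 7.45 in KO. At CT12 it read 1.26, 0.68 and 1.21 in WT against 4.37, 3.59 and 4.01 in KO, so the whole-transcript value of KO lay below WT at CT0 but above it at CT12. These values do not isolate the floxed exon. All 8 hepatocyte markers were present in every liver. For KO against WT at CT12 1 of them was lower (Alb, -1.05, adjusted p = 3e-04) and 1 higher (Fgb, 0.88, adjusted p = 0.01), where 3.49% and 6.97% of all tested genes were, with a median over the 8 of 0.06 against 0.08 over all genes. At CT0 1 of the 8 was lower (Alb, -0.93, adjusted p = 0.0045) and none higher, where 0.843% and 1.02% of all genes were. Of the adipocyte markers, Lep, Retn and Ucp1 were listed at 0 in all 12 samples and only Fabp4 reached 1 RPKM. Y-linked transcripts summed to 60.9 to 75.4 RPKM in the 12 samples. The first KO replicate at CT0 stood apart for lipid synthesis genes, as described below. For the members, the genes that work beside them, the peroxisomal enzymes and the regulators, values without it are given where it changes a call or a direction named in the text. Calls of cell type markers, sex-biased genes and Arntl were not compared without it.

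Since RPKM is scaled to length, levels can be set side by side between genes. In WT at CT0 the order from high to low was Scd1, Elovl5, Fads2, Elovl3, Elovl2, Fads1, Elovl1, Elovl6 and Scd2, from a mean of 1566 RPKM for Scd1 to 1.79 RPKM for Scd2. The place of Elovl5 above Fads2 holds for its 638-base row, since its 2782-base row had a mean of 167 RPKM against 167.5 RPKM for Fads2. Elovl3, Elovl2 and Fads1, at means of 95.7, 88.8 and 88.2 RPKM, overlapped in their samples, and so did Elovl1 and Elovl6. The place of Elovl3 shifted most between groups. It stood 4th at CT0 in both genotypes, 8th in WT at CT12 and 2nd in KO at CT12, where its samples overlapped those of Scd1 above it and of the 638-base row of Elovl5 below it.

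**Figure D1:**
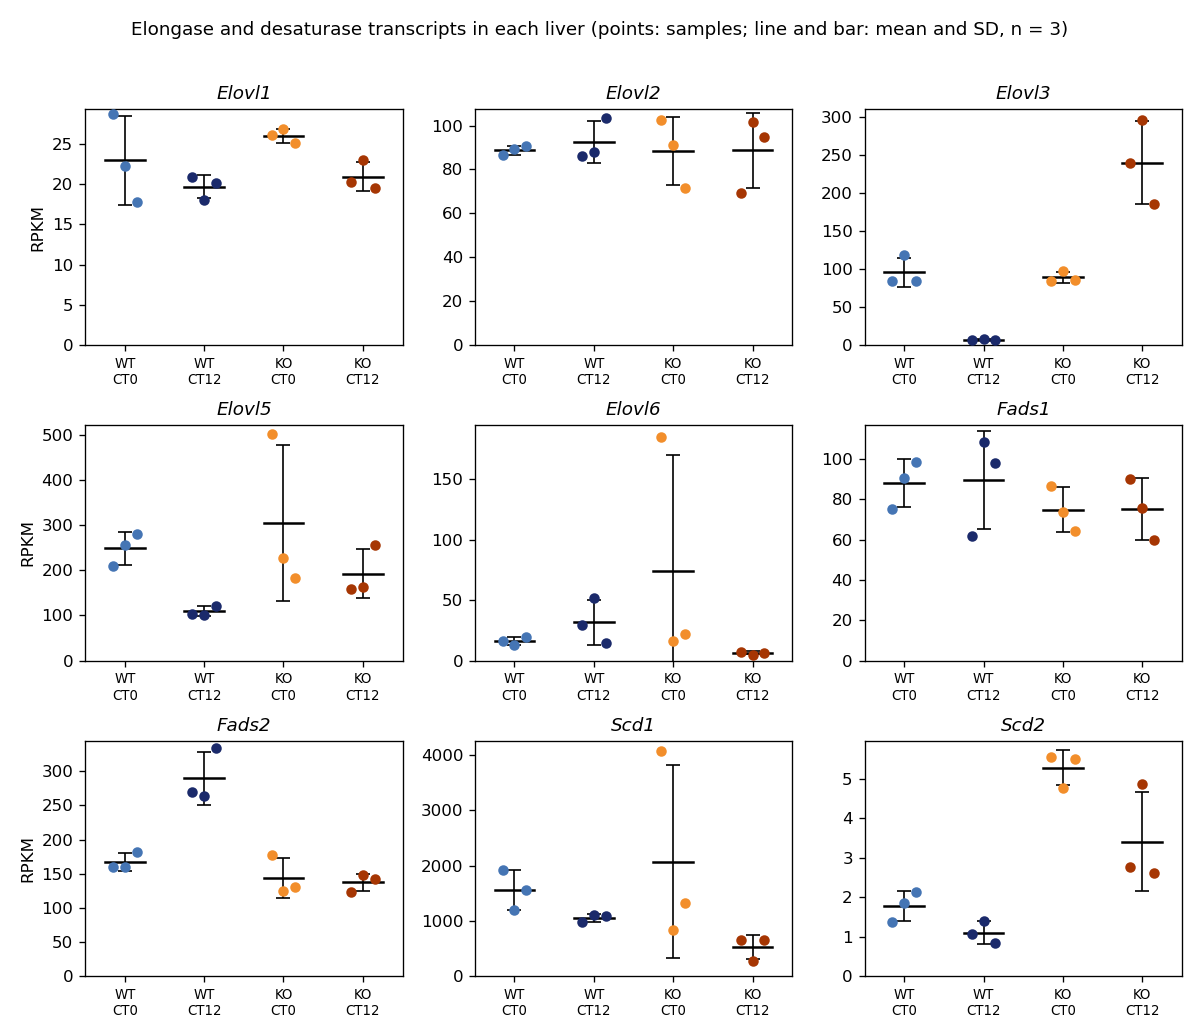
RPKM of each of the 9 transcripts in the 12 livers, 1 panel per gene with its own axis from 0; points are samples, and the line and bar are the mean and SD of 3 samples, cut at 0 where the SD exceeds the mean. Elovl3 sits near 7 RPKM in the 3 WT livers at CT12 and between 185.4 and 295.3 RPKM in the 3 KO livers, and a single KO sample at CT0 stands far above the others for Elovl5, Elovl6 and Scd1.

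Elovl3, the elongase of saturated and monounsaturated very long chains, had overlapping levels in the genotypes at CT0 and opposite time differences. In WT it read 84.5, 117.9 and 84.6 RPKM at CT0 and 7.19, 7.31 and 7.14 RPKM at CT12. In KO it read 84.0, 97.6 and 85.9 RPKM at CT0 and 238.9, 295.3 and 185.4 RPKM at CT12. All WT samples at CT12 lay below all at CT0, all KO samples at CT12 lay above all at CT0, and the genotypes overlapped at CT0 only. The ratio of mean RPKM was 13.3 for CT0 over CT12 in WT, 2.69 for CT12 over CT0 in KO and 33.3 for KO over WT at CT12. On the scale of log2(RPKM + 1) the KO minus WT difference was -0.09 at CT0 and 4.85 at CT12. The difference of the time differences was 4.93. The WT samples at CT12 were also the least variable, 7.21 ± 0.0918 RPKM (SD, n = 3). They held 218, 202 and 180 reads, at which counting error alone is larger than this SD. The small SD therefore does not show that these livers varied little. Liver genes known for sex bias gave no single direction. Of 3 male-biased genes 1 was lower in KO at CT0 (Cyp4a12a, -2.14, adjusted p = 0.033) and 1 was higher at CT12, and of 3 tested female-biased genes 1 was lower at CT12, where 0.843% of all genes were lower at CT0 and 6.97% were higher and 3.49% lower at CT12. Their part in the Elovl3 values was not tested.

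Across the 12 samples and 10798 other genes tested, those with a pattern most like that of Elovl3 (Pearson's r of the log2 values) were Leprotl1 (0.963), Cul2 (0.961), Lrp5 (0.96), Wdr91 (0.96) and Gpr19 (0.959). The samples share libraries and group structure, and these values are a description. By group means each of the 5 was lowest in WT at CT12 and highest in KO at CT12. Choosing them by correlation with Elovl3 favours this order. Their range was much smaller than that of Elovl3. In KO the samples of CT0 and CT12 overlapped for Lrp5 and Wdr91, but not for Leprotl1, Cul2 and Gpr19. Lrp5, a WNT co-receptor, had means of 12.5, 5.73, 14.2 and 15.7 RPKM in WT CT0, WT CT12, KO CT0 and KO CT12, and Cul2, a scaffold of ubiquitin ligases, had 19.9, 15.8, 19.9 and 22.8 RPKM. Gpr19, an orphan receptor, lay between 0.556 and 2.11 RPKM, close to the filter on low values.

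Fads2, the delta-6 desaturase that opens the polyunsaturated pathway, rose from CT0 to CT12 in WT and was lower in KO at CT12. In WT it read 160.7, 159.7 and 182.3 RPKM at CT0 and 270.3, 264.4 and 333.7 RPKM at CT12, and in KO 178.1, 124.3 and 130.4 RPKM at CT0 and 123, 147.6 and 142.1 RPKM at CT12. The 3 WT samples at CT12 stood above all 9 others, which overlapped. The KO minus WT difference at CT12 was -1.06 (SE 0.14, log2 scale, adjusted p = 0.00048), a ratio of mean RPKM of 0.475, and the rise with time in WT was 0.78 (SE 0.14, adjusted p = 0.0045). In KO the time difference was -0.05 (95% interval -0.36 to 0.25). The test of whether the time differences themselves differed gave -0.83 (SE 0.20, adjusted p = 0.069), short of the threshold of 0.05. At CT0 the KO minus WT difference was -0.23 (95% interval -0.54 to 0.08), and -0.39 (adjusted p = 0.2) without the first KO replicate.

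Fads1, its neighbour and the delta-5 desaturase, lay between 59.8 and 108.7 RPKM in all samples with overlap between all groups. Its KO minus WT difference was -0.23 at both times (95% interval at CT12 -0.68 to 0.22), which does not show that it stayed level. The 2 neighbours thus had differences of -1.06 and -0.23 at CT12, and their contrast was not tested.

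Scd2, the stearoyl-CoA desaturase that is minor in adult liver, was higher in KO than in WT at both times. It read 1.39, 1.85 and 2.14 RPKM in WT against 5.56, 4.78 and 5.50 RPKM in KO at CT0, and 1.08, 1.41 and 0.834 RPKM in WT against 2.77, 4.86 and 2.60 RPKM in KO at CT12. Every KO sample stood above every WT sample. The difference was 1.18 at CT0 (SE 0.18, adjusted p = 0.0078) and 1.04 at CT12 (SE 0.18, adjusted p = 0.0034) on the log2(RPKM + 1) scale, which understates low genes, and the ratio of mean RPKM was 2.95 and 3.08. Averaged over the genotypes, Scd2 was lower at CT12 by 0.47 (SE 0.13, adjusted p = 0.028), a call lost without any of 8 of the 12 samples (adjusted p = 0.051 to 0.067) and with no filter (0.052).

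Scd1, the main desaturase of the liver, was present far above Scd2, with which it shares the stretch of 147 bases, so the division of reads on that stretch is uncertain. The values of the pair did not run together. Scd1 read 4066, 835.2 and 1322 RPKM in the 3 KO samples at CT0, in which Scd2 read 5.56, 4.78 and 5.50 RPKM. In WT Scd1 read 1928, 1208 and 1561 RPKM at CT0 and 978.5, 1101 and 1089 RPKM at CT12, and in KO at CT12 it read 656, 274.7 and 654.3 RPKM. At CT12 all KO samples lay below all WT samples, and in each genotype all samples of CT12 lay below all of CT0. The fall with time averaged over genotypes was 1.15 on the log2 scale (SE 0.34, adjusted p = 0.039), a call lost without any of 8 of the 12 samples (adjusted p = 0.051 to 0.083), with no filter (0.076) and under quantile normalization (0.054). Averaged over times, the genotype difference was -0.50 (adjusted p = 0.40), and -0.83 (0.044) without the first KO replicate at CT0. The KO minus WT difference at CT12 was -1.10 (SE 0.48, adjusted p = 0.18).

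Elovl5, the elongase of polyunsaturated chains of intermediate length, fell from CT0 to CT12 in WT. It read 208.4, 256.1 and 281 RPKM at CT0 and 103.3, 102.1 and 122 RPKM at CT12 in WT, and 500.9, 227.8 and 182.7 RPKM at CT0 and 159.5, 163.1 and 255.3 RPKM at CT12 in KO. The WT groups did not overlap, the KO groups did, and at CT12 all KO samples stood above all WT samples. The WT time difference was -1.17 (SE 0.30, adjusted p = 0.03), and this call was lost when any of 5 WT samples was left out (adjusted p = 0.061 to 0.096). The KO minus WT difference at CT12 was 0.78 (SE 0.30, adjusted p = 0.13). These values are of a 638-base transcript. The 2782-base transcript of the same gene read 141.1, 169.1 and 190.7 RPKM in WT at CT0 and 70.1, 70.4 and 82.0 RPKM at CT12, the same pattern at a lower level.

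Elovl6, which lengthens palmitate to stearate, had the largest SE of the 9 genes in the pooled fit, through the spread in WT at CT12 (SD 58.3% of the mean) and KO at CT0 (129%), while in WT at CT0 and KO at CT12 its SD was 21.3% and 18.9% of the mean. It read 16.7, 12.6 and 19.5 RPKM in WT at CT0, 29.4, 51.6 and 14.7 RPKM in WT at CT12, 184.7, 16.5 and 21.8 RPKM in KO at CT0 and 7.56, 5.15 and 6.79 RPKM in KO at CT12. The KO samples at CT12 were the lowest of all 12 and did not overlap any other group. With all 12 samples the KO minus WT difference at CT12 was -1.98 (SE 0.70, adjusted p = 0.10). It was the same size with an SE of 0.35 (adjusted p = 0.0039) once the first KO replicate at CT0 was left out, and gave adjusted p = 0.017 from the 6 samples of CT12 alone. That KO sample is no part of this contrast and entered it through the shared estimate of the spread.

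Elovl1 and Elovl2 passed no contrast with all 12 samples, though Elovl1 passed for time (-0.33, adjusted p = 0.027) without WT CT0 replicate 3. Elovl1, which serves chains of sphingolipids, lay between 17.8 and 28.8 RPKM, with a KO minus WT difference of 0.20 at CT0 (95% interval -0.11 to 0.50) and 0.08 at CT12 (-0.22 to 0.39). Elovl2, the liver elongase that leads to docosahexaenoic acid, lay between 69.5 and 103.3 RPKM, with group means of 88.8, 92.4, 88.4 and 88.7 RPKM. Its KO minus WT difference was -0.02 at CT0 (95% interval -0.35 to 0.31) and -0.07 at CT12 (-0.41 to 0.26).

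**Figure D2:**
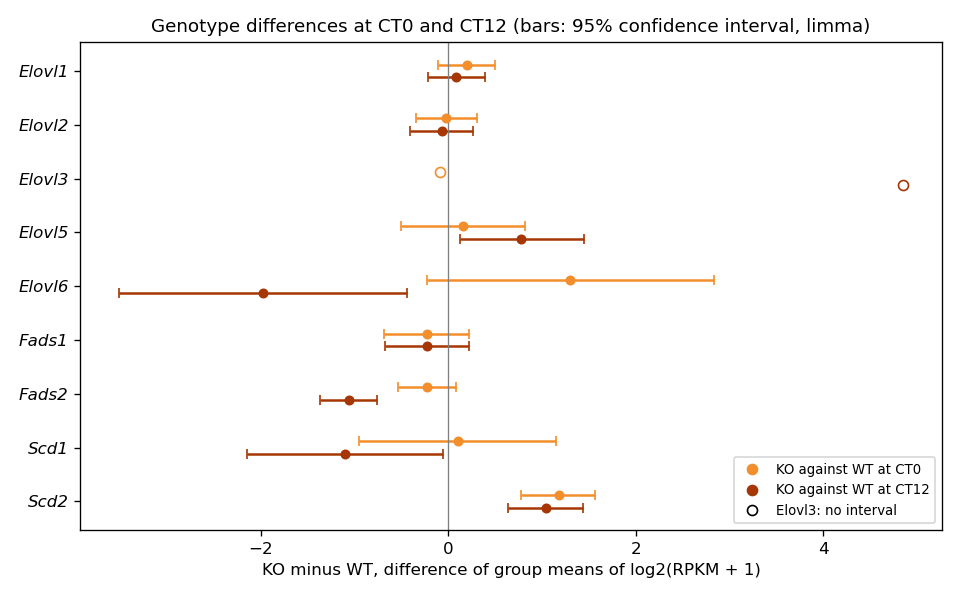
KO minus WT differences of the group means of log2(RPKM + 1) for the 9 genes, at CT0 in light and at CT12 in dark orange; bars are 95% confidence intervals from the limma fit, unadjusted for the number of genes, and Elovl3 has none because it was chosen by these values. Elovl3 stands at 4.85 at CT12, Scd2 is above 0 at both times, Fads2 is at -1.06 at CT12, and the intervals of Elovl6 and Scd1 are wide.

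Counted over the 8 genes other than Elovl3, 2 passed the test at CT12 for KO against WT, Scd2 higher and Fads2 lower, where 10.5% of the 10799 tested genes did (6.97% higher and 3.49% lower). At CT0 1 of 8 passed (Scd2, higher) against a background of 1.86% (1.02% higher and 0.843% lower). Averaged over the times, Scd2 and Fads2 passed again, with 11.5% of all genes called. From CT0 to CT12 in WT, 2 of 8 passed, Fads2 higher and Elovl5 lower, against 11.6% of all genes (3.71% higher and 7.88% lower). Averaged over genotypes 4 of 8 passed the test of time, with Fads2 higher and Elovl5, Scd1 and Scd2 lower, against 16.6% of all genes. The Elovl5 call held without any single sample. That of Fads2 held only without WT CT0 replicate 3, WT CT12 replicate 1 or 2, KO CT0 replicate 1 or KO CT12 replicate 1, and was lost without each of the others (adjusted p = 0.051 to 0.068). That of Scd1 held only without KO CT0 replicate 1 or 2 or KO CT12 replicate 1 or 3 (otherwise 0.051 to 0.083), and that of Scd2 only without WT CT0 replicate 1, WT CT12 replicate 2, KO CT0 replicate 2 or KO CT12 replicate 2 (otherwise 0.051 to 0.067). In KO none of the 8 passed for time in limma (3 at an unadjusted p under 0.05), where 2.43% of all genes did, and none passed the interaction (2 at an unadjusted p under 0.05), where 1.49% did. With so few genes these shares are counts and not a test of the family.

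The first KO replicate at CT0 carried high levels of fatty acid synthesis transcripts. Its Elovl6 value was 9.63 times the mean of the other 2 KO samples at CT0, Scd1 3.77 times and Elovl5 2.44 times. Fads2 was at 1.4 times and Elovl2 and Fads1 at 1.26 times each, whereas Elovl1, Elovl3 and Scd2 lay between 0.915 and 1.08 times. Fasn (fatty acid synthase) was at 5.67 times, Acly (ATP citrate lyase) at 5.33 times, and the acetyl-CoA carboxylases Acacb and Acaca at 4.82 and 3.85 times. The second WT replicate at CT12 had a smaller rise of the same kind, 2.34 times the mean of its group's other samples for Elovl6 and 3.19 times for Fasn, with Scd1 at 1.07 times. Without the first KO replicate at CT0, 5 of the 8 genes passed for KO against WT at CT12 in place of 2, where 11.8% of all genes did. Elovl5 (0.78, adjusted p = 0.017), Elovl6 (-1.98, 0.0039) and Scd1 (-1.10, 0.041) joined Fads2 and Scd2. From the 6 samples of CT12 alone 4 passed, all of these but Scd1, with 8.32% of all genes called. At CT0 the KO minus WT differences of Elovl6, Elovl5 and Scd1 were 1.30, 0.16 and 0.10 with that sample and 0.23, -0.27 and -0.55 without it, and none passed either way. The Scd2 difference at CT0 was 1.14 without that sample (SE 0.21, adjusted p = 0.032). What set this liver apart was not tested.

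**Figure D3:**
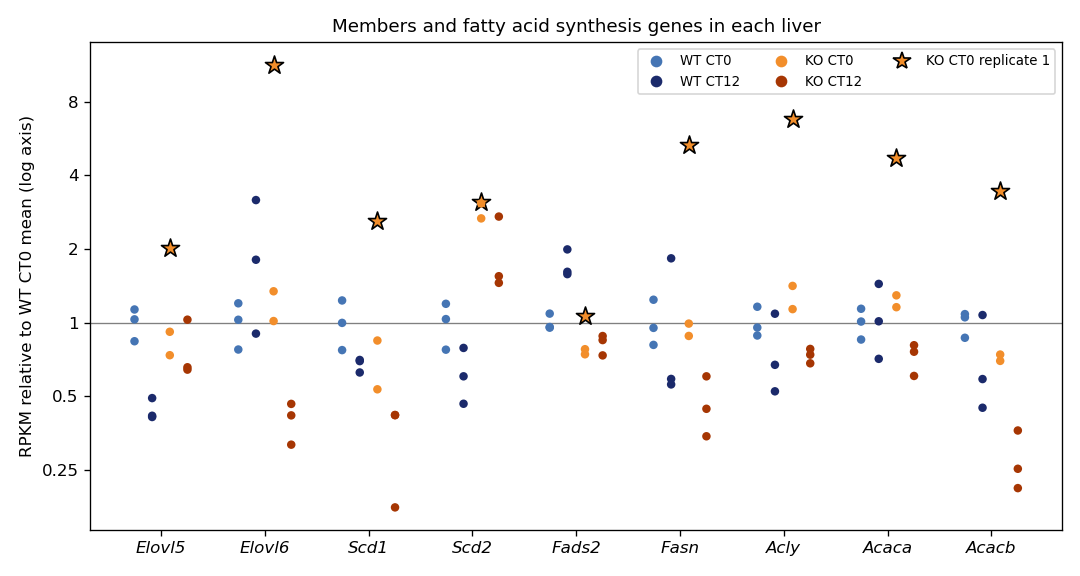
RPKM in each of the 12 livers divided by the WT mean at CT0, on a log axis, for 5 of the members and for Fasn, Acly, Acaca and Acacb; colours are groups and the star is the first KO replicate at CT0. The star is the highest point for Elovl5, Elovl6, Scd1 and the 4 synthesis genes but lies with its group for Scd2, and the KO samples at CT12 are the lowest for Elovl6, Scd1 and Acacb.

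Genes that work beside the elongases and desaturases were counted in 3 lists. Of all tested genes 10.5% passed for KO against WT at CT12 (11.8% without the first KO replicate at CT0). At such a share a list this short can hold no call. Of 8 partners of elongation, which comprise the other elongases and the reductase and dehydratase steps, 6 were expressed enough to be tested and none passed for KO against WT at CT12 in limma (1 at an unadjusted p under 0.05). Elovl4 and Elovl7 stayed under 0.2 RPKM. The dehydratases Ptplb (Hacd2) and Ptplad2 (Hacd4) had differences of 0.31 and 0.23, and Ptplb passed when averaged over the times (0.27, adjusted p = 0.044) but not without the first KO replicate at CT0 (0.28, adjusted p = 0.059). Of 9 other desaturases and electron donors 5 were tested and none passed at CT12 (1 at an unadjusted p under 0.05), with Cyb5, the cytochrome b5 that feeds electrons to desaturases, at -0.31 (adjusted p = 0.095). Degs1, the next largest difference in size, was at 0.19 (adjusted p = 0.48). Without the first KO replicate at CT0, Cyb5 passed (-0.31, adjusted p = 0.037). Of 9 genes that supply acyl-CoA and malonyl-CoA, 8 were tested and none passed at CT12 (1 at an unadjusted p under 0.05). Their median difference was -0.24 against 0.08 over all genes. Acacb read -1.13 (adjusted p = 0.17), Fasn -0.89 (0.41) and Acaca -0.48 (0.54). Without the first KO replicate at CT0, Acacb passed (-1.13, adjusted p = 0.015).

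Peroxisomal enzymes, which shorten very long chains and complete docosahexaenoic acid, were lower in KO at CT12 in 3 of 6 cases and higher in none, where 3.49% of all tested genes were lower. Acaa1b and Acaa1a, the peroxisomal thiolases, were lower by 1.41 and 0.99 on the log2 scale (adjusted p = 0.0034 and 0.0011), and Hsd17b4, the multifunctional enzyme of the pathway, by 0.38 (0.045). At CT0 2 of 6 were lower, again Acaa1b and Acaa1a, against 0.843% of all genes. The near-identical sequences of Acaa1a and Acaa1b leave the division of reads between them uncertain.

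The 15 regulators of the families described here were all tested, and 5 passed at CT12, 1 higher and 4 lower in KO, against 10.5% of all genes (6.97% higher and 3.49% lower). Insig2, which retains SREBP in the endoplasmic reticulum, was higher by 3.29 (SE 0.24, adjusted p = 5.7e-06). It read 172.8, 170.6 and 204.8 RPKM in WT at CT0, 18.5, 14.0 and 28.1 in WT at CT12, 229.2, 232.4 and 285.7 in KO at CT0 and 152, 183.6 and 281.2 in KO at CT12, so the WT samples at CT12 stood alone, as they did for Elovl3, although Insig2 did not rise with time in KO (-0.32, 95% interval -0.85 to 0.21). This row is a 204-base transcript. Nr1d2 (REV-ERB beta) was lower by 1.95, Ppara by 1.04 and Srebf1, which encodes SREBP-1, by 0.99 (adjusted p = 0.00013, 0.00015 and 0.0094). Mlxipl, which encodes the carbohydrate response factor ChREBP, was at -0.95 (adjusted p = 0.02) and is named after its value was seen. Srebf1 read 58.8, 105.6 and 60.0 RPKM in WT at CT12 and 39.7, 36.3 and 31.4 RPKM in KO, without overlap. At CT0 3 of 15 passed, against 1.86% of all genes, with Ppara, Nr1d1 and Nr1d2 lower, and without the first KO replicate these read -0.59, -1.43 and -0.96 (adjusted p = 0.078, 0.11 and 0.12).

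**Figure D4:**
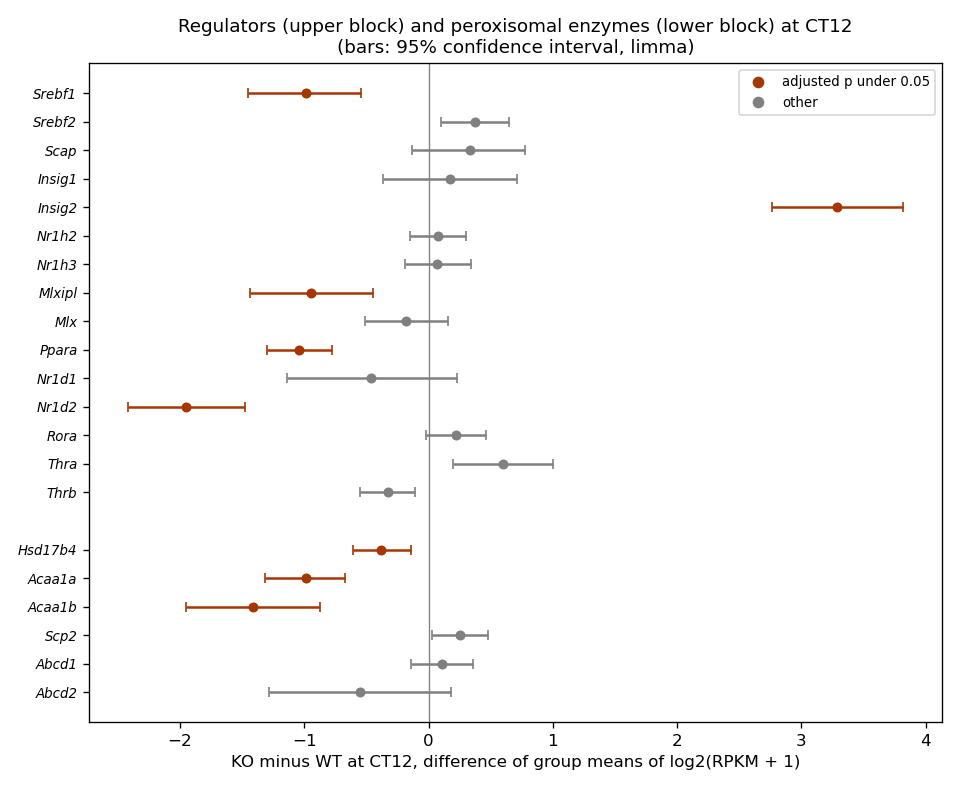
KO minus WT differences at CT12 of the group means of log2(RPKM + 1) for 15 regulators (upper block) and 6 peroxisomal enzymes (lower block); bars are 95% confidence intervals from the limma fit and colour marks an adjusted p under 0.05. Insig2 is farthest to the right at 3.29, Nr1d2 farthest to the left at -1.95, and Srebf1, Mlxipl, Ppara, Acaa1a, Acaa1b and Hsd17b4 are below 0.

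Other cell types were sampled through their markers. For KO against WT at CT12 none of the tested macrophage (6), endothelial (5), stellate (5), cholangiocyte (3), blood (3) and adipocyte (1) markers passed in limma, with 0, 1, 2, 0, 2 and 0 of them at an unadjusted p under 0.05. Of all tested genes 10.5% passed that contrast. Between the times, averaged over genotypes, 3 of 6 macrophage, 2 of 5 endothelial, 2 of 5 stellate and 1 of 3 cholangiocyte markers and Fabp4 were lower at CT12, where 16.6% of all genes were called for time in either direction. These moved in the direction of Elovl5, Scd1 and Scd2 over time, and their part in those results was not tested.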

How the data were processed

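RNA of whole mouse liver was sequenced from TruSeq libraries, 3 samples in each of 4 groups named by the titles. RPKM values for 46585 transcripts were deposited by the authors, a table for each sample, and replicates were not pooled. The submitters' processing notes name TopHat2, bedtools 2.19.1 and mm9, with no role given. Counting rules and strand handling are not given in the sources used here, so rows of 1 gene may share reads.

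For each of 22322 symbols the row with the highest mean was kept. Genes whose mean reached 1 RPKM in any group (10799, all 9 members among them) were fitted as log2(RPKM + 1) by limma 3.58.1 under R 4.3.3, with 4 group means over 12 samples and a trended eBayes prior, tested on simulated data. Benjamini-Hochberg adjustment ran over all these genes, threshold 0.05, and every adjusted p-value is from this fit unless another sample set is named. Contrasts were genotype, time, interaction and the 4 simple differences. Some genes of the lists are not reported here. Members and gene lists were chosen with earlier results of these data known. Named were the 9 members, Arntl, the 5 genes most correlated with Elovl3, and in each list the 2 to 4 largest differences at CT12. Acly and Alb, and others called or at 0, were named after their values were seen.

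Depth came from low values, of which 95.5% to 96.2% lay within 0.05 steps of whole reads, using GENCODE vM1 lengths on NCBIM37 (95.5% of rows). Recovered reads cover counting error only. Promoter windows were RefSeq's, matched by symbol for 5 of 9 members. Windows of Elovl3, Fads1, Scd1 and Scd2 were not used here. Alternatives were a pseudocount of 0.1, no filter, 1 RPKM in every sample, quantile normalization, summed transcript rows, a replicate block, an ordinary model with unadjusted p, the 6 samples of a contrast alone, and each sample left out in turn. Lists without the first KO replicate at CT0 were added after seeing the data. Python 3.11.15, pandas 2.3.3 and matplotlib 3.10.9 were used.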

Additional observations from a re-analysis of the deposited data

Results flagged for a closer look

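Elovl3 moved in opposite directions over time in the genotypes, with every WT sample lower and every KO sample higher at CT12 than at CT0. The difference of the time differences was 4.93 on the log2(RPKM + 1) scale, and it was not tested because Elovl3 was chosen by it. Among the other genes of the lists, the interaction in limma passed the threshold for Insig2 (2.85, SE 0.34, adjusted p = 0.0019) and for Arntl (2.50, SE 0.18, adjusted p = 7.2e-05). The CT12 minus CT0 difference of Insig2 was -3.16 in WT and -0.32 in KO, and that of Arntl was -3.06 and -0.56. No rule was applied to flag single outlying samples in groups of 3, though each sample was left out in turn and the first KO replicate at CT0 is described above.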

How the results depend on the processing

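The calls of Scd2 (KO against WT at CT0, at CT12 and averaged) and of Fads2 (KO against WT at CT12 and averaged, time in WT) held under each alternative that tested them. Over the 8 genes, 7 contrasts and the alternatives, 1040 of 1089 values kept their direction where called and their side of the threshold, 32 lost a call and 17 gained one. Of 852 values without a call, 42 took another sign and stayed uncalled. Requiring 1 RPKM in every sample removed Scd2, which left 1 call for genotype, 0 at CT0 and 1 at CT12. With no filter, 2 members in place of 4 passed for time and 1 in place of 2 for time in WT, where more genes were tested. The ordinary model with unadjusted p gave 2 for the interaction and 3 for time in KO. The 6 samples of CT12 alone gave 4. Leaving out 1 sample gave 1 to 3 for time (main 4), with 1 each without WT CT0 replicate 2, WT CT12 replicate 3 or KO CT0 replicate 3 and 2 each without WT CT0 replicate 1, WT CT12 replicate 1, KO CT12 replicate 2 or KO CT12 replicate 3. It gave 2 to 5 for KO against WT at CT12 (5 without KO CT0 replicate 1), 1 to 2 for time in WT (1 without WT CT0 replicate 2 or 3 or any WT CT12 replicate) and 0 to 2 for time in KO, with 2 (Elovl6 and Scd1) without KO CT0 replicate 2 and 1 (Scd2) without KO CT12 replicate 2. The causes were not tested. The time calls of Fads2, Scd1 and Scd2 were lost without 7, 8 and 8 of the 12 samples, and that of Scd1 under quantile normalization (adjusted p = 0.054). With the replicate number as a block, 1 member passed for time in KO (Scd1, -1.75, adjusted p = 0.047) in place of 0, and no other call of the 8 changed. Same-numbered samples did not deviate together on average (mean r = 0.0083 over 18 pairs, range -0.0665 to 0.139), and the main fit used no pairing. A mean over pairs cannot exclude a batch or a pairing. No Elovl3 value moved by more than the spread between replicates. Scd2 had the fewest reads of the members, 61 to 452 per sample, whereas Elovl6 had the largest SE.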
